A study of Drosophila melanogaster with 3 samples.

Results

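Binding of Ultraspiracle (USP) was examined at 4 genes of temporal identity, Imp, Syp, Eip93F and crol, among the 13945 protein-coding genes of the annotation. The genes are given by name, and their sites are all peak summits in the annotated body of each gene or in the 1 kb upstream of it. In the list of peaks that the authors thresholded by the irreproducible discovery rate (IDR), 30 of 11195 summits met this rule: 15 at Syp, 6 at Imp, 5 at crol and 4 at Eip93F. The measurements are ChIP-seq with an antibody against GFP. Chromatin came from whole larvae of the third instar at the wandering stage, both sexes pooled, of the strain usp-GFP, a transgenic line that stably expresses usp with eGFP at its C terminus. The labels give 3 biological replicates of this 1 group, all from the same donor strain, and no age in hours. Whether untagged usp remained in the line is not stated there. There is no second genotype, treatment or stage, so values are set beside each other across replicates and against the rest of the genome. Peak lists hold no expression values, so the tissue label was not checked against markers. In whole animals, occupancy in few cells and weak occupancy in many cannot be told apart.

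USP is a nuclear receptor, related to vertebrate RXR, that pairs with EcR to make the receptor for the steroid hormone ecdysone. Imp and Syp encode RNA-binding proteins, relatives of the vertebrate IGF2BP and SYNCRIP proteins, which act against each other in ageing neural stem cells of the larva: Imp is high early and Syp is high late, and the fate of the neurons depends on their levels. Eip93F, also called E93, encodes a helix-turn-helix factor that is induced by ecdysone and directs adult development at metamorphosis. The gene crol, for crooked legs, encodes a zinc finger protein that is itself induced by ecdysone and is needed for leg and head development in the prepupa.

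The sequences under the strongest summit of each gene are shown first, with a second strong site of Syp and 2 sites near transcription start sites (TSSs) that carry repeats. Each runs 5′ to 3′ on the plus strand of dm6, up to 100 bp on either side of the summit, and was clipped where an exon begins. Sequence is from the RefSeq copy of the genome. Capitals mark matches to the motifs named further on, on either strand: in the first pair a near match to the ecdysone response element, which in the second of them stands beside GAGAGAG, and in the other Syp and Imp windows GAGAGAG or CACACACA. The Eip93F and crol windows hold none.

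Syp, strongest site, intron, chr3R:20765557-20765757, rank 193: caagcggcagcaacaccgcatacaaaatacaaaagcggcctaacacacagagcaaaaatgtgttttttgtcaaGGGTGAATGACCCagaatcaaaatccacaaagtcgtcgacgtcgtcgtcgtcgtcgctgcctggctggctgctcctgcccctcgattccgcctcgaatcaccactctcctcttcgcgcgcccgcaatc
Syp, site near the last TSS, intron, chr3R:20791296-20791496, rank 536: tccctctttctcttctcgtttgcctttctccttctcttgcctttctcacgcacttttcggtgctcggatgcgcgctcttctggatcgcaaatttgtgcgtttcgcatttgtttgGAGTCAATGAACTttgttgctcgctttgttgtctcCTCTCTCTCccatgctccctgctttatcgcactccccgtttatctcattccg
Syp, site upstream of the second TSS, chr3R:20778563-20778763, rank 2059: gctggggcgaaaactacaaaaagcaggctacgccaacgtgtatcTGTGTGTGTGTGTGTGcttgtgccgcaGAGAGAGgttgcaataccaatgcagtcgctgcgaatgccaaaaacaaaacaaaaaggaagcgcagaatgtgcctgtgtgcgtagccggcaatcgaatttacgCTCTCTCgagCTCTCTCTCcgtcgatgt
Imp, strongest site, intron, chrX:10816892-10817092, rank 1431: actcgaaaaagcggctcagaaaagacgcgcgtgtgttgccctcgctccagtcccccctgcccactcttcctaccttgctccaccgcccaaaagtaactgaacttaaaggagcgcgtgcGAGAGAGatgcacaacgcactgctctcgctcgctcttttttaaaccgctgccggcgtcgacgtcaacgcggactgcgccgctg
Imp, site upstream of the fourth TSS, chrX:10815668-10815868, rank 4165: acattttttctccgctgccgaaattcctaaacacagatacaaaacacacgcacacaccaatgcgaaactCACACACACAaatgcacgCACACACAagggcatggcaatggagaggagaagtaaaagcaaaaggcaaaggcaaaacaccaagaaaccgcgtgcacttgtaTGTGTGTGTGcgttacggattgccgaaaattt
Eip93F, strongest site, intron, chr3R:21976484-21976684, rank 483: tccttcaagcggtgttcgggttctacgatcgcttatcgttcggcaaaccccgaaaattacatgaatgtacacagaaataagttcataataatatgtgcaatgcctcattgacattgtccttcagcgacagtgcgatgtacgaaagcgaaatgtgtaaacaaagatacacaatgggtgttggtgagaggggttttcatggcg
crol, strongest site, intron, chr2L:11807856-11808013, rank 866: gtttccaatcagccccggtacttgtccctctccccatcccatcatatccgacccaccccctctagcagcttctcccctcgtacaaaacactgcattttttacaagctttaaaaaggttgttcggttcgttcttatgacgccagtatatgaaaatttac

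All 4 genes were bound, both in the thresholded peaks and in the 11195 peaks of highest signal of every replicate. Of all protein-coding genes 35.8% held a summit in the IDR-thresholded list, and 35.9%, 33.8% and 36.9% did in replicates 1, 2 and 3. Longer genes held summits more often, so each gene is also read against those of 0.75 to 1.33 times its own length, of which 62.2% were bound for Syp, 61.3% for Eip93F, 60.1% for Imp and 60.5% for crol. A count of 4 of 4 is read against these shares and is no result about the 4 genes by itself. Ranks by signal, the peak caller's score, are used to compare lists, because signals were not scaled between libraries.

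By its strongest site, Syp came first in every replicate. Its best rank was 232 in replicate 1, 145 in replicate 2 and 190 in replicate 3 (189 ± 43.5, SD, n = 3). Eip93F followed with 424, 554 and 510 (496 ± 66.1, n = 3). Syp ranked ahead of Eip93F, and Eip93F ahead of crol and Imp, with no overlap between replicates. For crol the best ranks were 808, 1201 and 832 (947 ± 220, n = 3), and for Imp they were 1573, 1185 and 1433 (1397 ± 196, n = 3). These 2 genes overlapped: Imp ranked ahead of crol in replicate 2 and behind it in replicates 1 and 3. In the IDR-thresholded list the best ranks were 193, 483, 866 and 1431 in the same order. In each gene the strongest site was the same one in all 3 replicates, displaced by at most 39 bp.

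**Figure D1:**
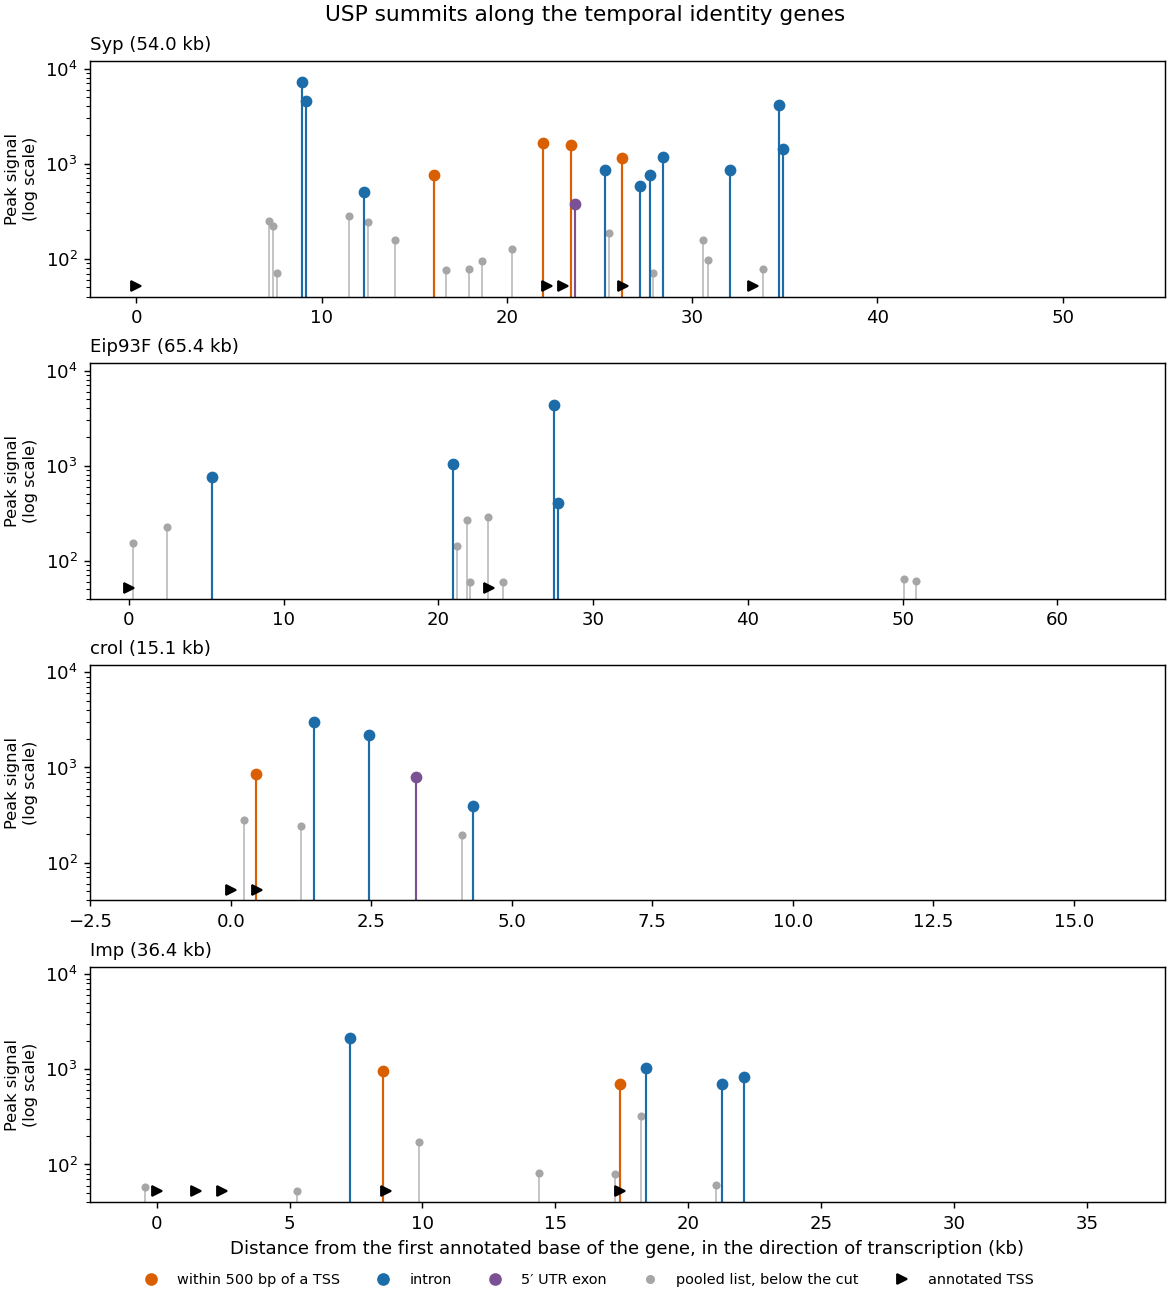
USP summits along Syp, Eip93F, crol and Imp, by distance from the first annotated base in the direction of transcription (kb) and by peak signal in the pooled data (log scale). Coloured points are the 30 summits of the IDR-thresholded list, grey points are weaker summits of the pooled list, and arrowheads are annotated TSSs. The tallest point of each gene is intronic, and the ends of all 4 genes are free of coloured points.

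Syp (FBgn0038826), on the plus strand of 3R from 20756729 to 20810726, carried the most summits of the 4 genes, with 17, 13 and 15 summits in replicates 1, 2 and 3 (15 ± 2, SD, n = 3). The 15 summits of the IDR-thresholded list fell in 9 peak intervals and lay between 8928 and 34880 bp from the first base. The strongest, at 20765657, had a signal of 7281 in that list, and signals of 2140, 2245 and 3112 in the replicates. A second summit of the same interval, at 20765868, ranked 445 there and 418, 453 and 514 in the replicates. Both lay in an intron of the long transcripts, 8928 and 9139 bp past the TSS from which 7 annotated transcripts start. That TSS had no summit of the IDR-thresholded list within 500 bp. In all 30000 rows of the pooled list the nearest one was 7159 bp away.

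The other strong site of Syp lay near the opposite end of the group, in an intron at 20791396. It ranked 536 in the IDR-thresholded list and 621, 391 and 618 in the replicates, 1410 bp past the last of the 5 TSSs of the gene. Between these ends stood a run of weaker sites, and 3 of the internal TSSs had one within 500 bp. The summit at 20778663 lay 232 bp upstream of a TSS and ranked 2522, 1470 and 2066 in the replicates. The summit at 20780209 lay 428 bp past the next TSS and ranked 2668, 2158 and 2021. The summit at 20782925 lay 58 bp upstream of a further TSS and ranked 4649, 2888 and 2998. These internal start sites were thus occupied in every replicate, at lower rank than the strong intronic sites at either end of the run. They did not rank below most of the weaker intronic sites between those ends. In the IDR-thresholded list only the one at 20785147, of rank 3271, came ahead of any of them, the summit at 20782925 of rank 3315. The order among these weaker sites varied between replicates.

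One summit in the body of Syp, at 20772783, was within 500 bp of the TSS of Takl1, a gene nested in an intron of Syp on the other strand, and belongs to either gene. CG31195, also nested in Syp, held none. Upstream of Syp the IDR-thresholded list was empty over a long stretch: its next summit lay 162047 bp from the first base, in bon. Downstream the next one lay 11509 bp beyond the end, at the promoter of RpS20.

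Imp (FBgn0285926), on the minus strand of X from 10787869 to 10824277, held 6 thresholded summits, and 6 in every replicate. They lay in 6 separate intervals. The strongest, at 10816992, ranked 1431 with a signal of 2142, and had signals of 655, 663 and 915 in replicates 1, 2 and 3. It was intronic, 1357 bp upstream of the fourth TSS of the gene and downstream of the first, the second and the third. The fourth TSS had a summit 133 bp upstream, at 10815768, ranked 5297, 3857 and 4087 in the replicates. The fifth had one 7 bp downstream, at 10806849, ranked 6320, 5334 and 6455. The remaining 3 summits ranked 3818, 4933 and 6047 and lay 996 to 4682 bp past the fifth TSS.

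The upstream start sites of Imp were different. The TSSs at 10824277, 10822786 and 10821817 had their nearest IDR-thresholded summit 7285, 5794 and 4825 bp away. The only other row of the pooled list within 500 bp of any of them was a weak summit 449 bp upstream of the first, of rank 28794, which also lies near the start of lncRNA:CR45624 and was matched in replicate 2 alone. Occupancy at Imp was listed at 2 internal start sites and not, among the thresholded peaks, at the 3 upstream ones.

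Eip93F (FBgn0264490), on the plus strand of 3R from 21949114 to 22014539, is the longest of the genes. Within the 11195 strongest peaks it had the fewest summits, 5, 4 and 4 in the replicates (4.33 ± 0.577, n = 3), whereas in all rows it had 14, 12 and 11 and crol had the fewest, 10, 9 and 8. All 4 of the IDR-thresholded list were intronic. The strongest, at 21976584, had a signal of 4389, which was 4.18 times that of the next one. In the replicates its signal was 1521, 1093 and 1837, or 3.91, 4.80 and 3.95 times that of the next, so a single site stood out in each. It lay 4205 bp past the second TSS of the gene. The others were at 21970093, 2286 bp upstream of that TSS, with rank 3771, at 21954480 with rank 5483, and at 21976823 with rank 10249.

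Neither TSS of Eip93F had a summit of the IDR-thresholded list within 500 bp, and neither did in any replicate's strongest 11195. Weak summits were present further down: one 30 bp upstream of the second TSS had rank 13168 in the pooled list and ranks 13635, 12518 and 13853 in the replicates. One 300 bp past the first TSS had rank 19118 in the pooled list and 22271, 29854 and 16467 in the replicates. A site of similar strength lay outside the 1 kb limit, 4954 bp upstream of the first base at 21944160, in no annotated gene, with rank 409 in the IDR-thresholded list and 502, 467 and 355 in the replicates. It ranked ahead of the strongest site in Eip93F in replicates 2 and 3 and in the IDR-thresholded list, and behind it in replicate 1. To which gene it belongs was not tested.

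The shortest of the genes, crol (FBgn0020309), lies on the minus strand of 2L from 11794327 to 11809438. It had 5 thresholded summits, all within 4312 bp of its first base, and 6 in every replicate. The strongest, at 11807956, had a signal of 3014 and lay in an intron 1016 bp past the second TSS. Its signals in the replicates were 1038, 659 and 1338. The next, at 11806975, ranked 1377 in the IDR-thresholded list and 1452, 1259 and 1361 in the replicates, so that the leading pair was nearly level in replicate 2, at a ratio of 1.04, and stood at ratios of 1.501 and 1.41 in replicates 1 and 3. A summit at 11808991 lay 19 bp upstream of the second TSS and 447 bp past the first, with ranks 5687, 5639 and 4409. The summit at 11806149 was in an exon of the 5′ UTR.

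The weakest summit of crol, at 11805126, lay in an intron inside a 39 bp stretch annotated as the transposable element Stalker2. It ranked 13675 in replicate 1, below the cut, and 9547 and 8873 in the others. A further site, at 11808190 in the pooled list, was present in every replicate: it ranked 4183, 2337 and 8660 in replicates 1, 2 and 3, yet 14924 in the pooled list, and so is absent from the IDR-thresholded list. No other summit of that list lay within 35014 bp upstream of crol or 53574 bp downstream.

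Most sites recurred. Of the 30 summits, 27 (90%) had a summit within 100 bp among the strongest 11195 of every replicate, against 71.2% of all IDR-thresholded summits. Replicate 1, which was not used to make the IDR-thresholded list, held 28 of them, against 87.4% of all summits. Replicate 2 held 28 (all summits, 84.6%) and replicate 3 held 30 (all summits, 90.3%). Replicates 2 and 3 were used to make the list, so recurrence in them is not independent of it. Over the whole list 94.8% of the strongest 5597 summits recurred in every replicate and 47.7% of the other 5598. At the 4 genes 22 of 23 summits did so in the stronger set and 5 of 7 in the weaker one. All 6 summits of Imp and all 4 of Eip93F recurred. The exceptions were at Syp and crol. The Syp summit at 20780412, of rank 10890 and in a 5′ UTR exon, ranked 14008 and 21836 in replicates 1 and 2. The Syp summit at 20791609 ranked 1741 and 4815 in replicates 1 and 3 and had no counterpart in replicate 2, where the neighbouring summit was displaced by 82 bp. The third was the crol summit in the Stalker2 stretch.

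**Figure D2:**
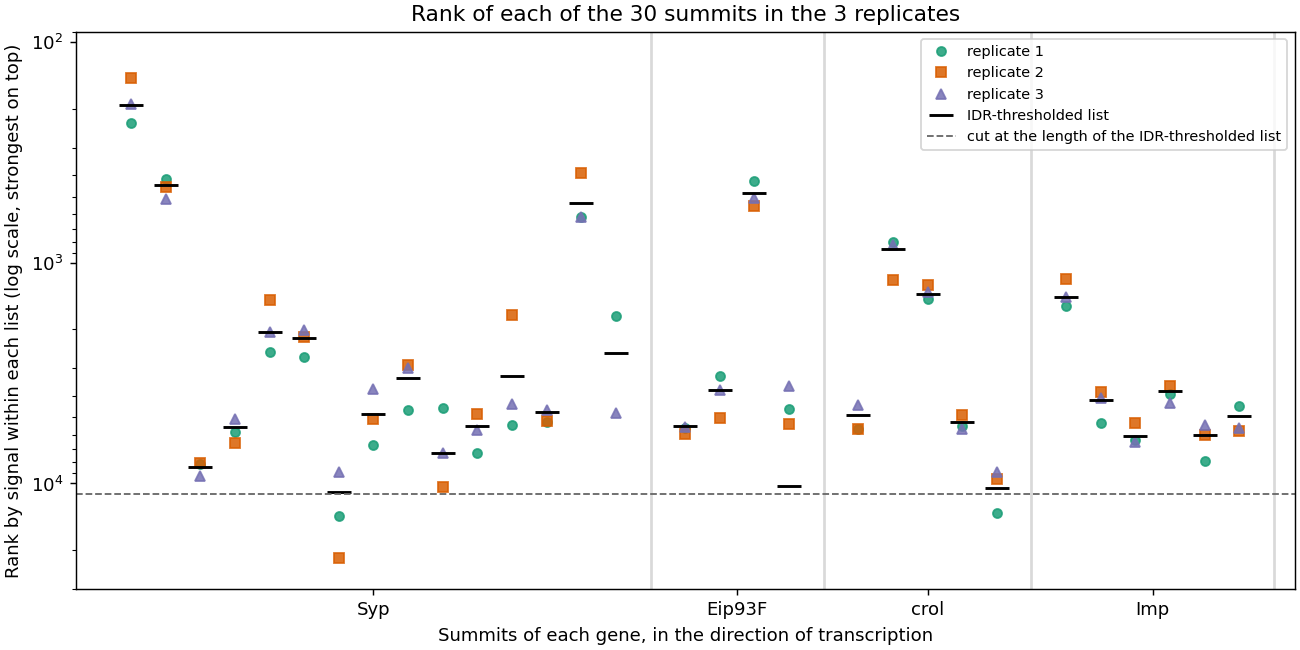
Rank by signal of each of the 30 summits within the list of each replicate (points) and within the IDR-thresholded list (bars), on a log scale with the strongest on top. Summits are in the order of transcription, and the dashed line is the cut at 11195. The strongest site of each gene keeps its place in all 3 replicates, and 3 points lie below the line: 2 at 1 Syp summit and 1 at the last crol summit.

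The sites lay inside the genes and mostly off the start sites. None was in the 1 kb upstream of a body. By class, 21 were in introns, 7 within 500 bp of a TSS and 2 in 5′ UTR exons further from one. The 7 make up 23.3%, against 43.1% of all IDR-thresholded summits, and replicates 1, 2 and 3 had 8, 7 and 7 such summits. The 43.1% covers genes of every length and sites outside genes, and was not matched to these long genes. Of the 7, 6 were at a TSS of the 4 genes themselves and the other at that of Takl1. The strongest site was outside promoters in all 4 genes, which was also so in 64.9% of protein-coding genes with at least 4 summits. Of the 14 annotated TSSs of the genes 7 had a summit within 500 bp, both among the thresholded peaks and in every replicate, against 28.4% of the TSSs of all protein-coding genes. They were 3 of 5 at Syp, 2 of 5 at Imp, both at crol and none of 2 at Eip93F. Both TSSs of crol were counted through the same summit, at 11808991. The 28.4% takes in genes without any summit, whereas all 4 genes here were bound, so the 2 shares are not over like sets.

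The far end of each gene was free of sites. After its last summit Eip93F continued for 37716 bp (57.6% of the body), Syp for 19117 bp (35.4%), Imp for 14305 bp (39.3%) and crol for 10799 bp (71.5%). In the pooled list of 30000 rows the free ends of Syp, Imp and crol were the same, whereas Eip93F had a pair of weak summits up to 50842 bp from its first base. In all, 21 of the 30 summits (70.0%) were nearer the start than the end of the body, against 64.4% of the summits in protein-coding genes as long as crol or longer, so the tilt towards the start was close to that of other long genes.

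Syp held more sites than most genes of like length, whereas the count at Eip93F was reached by many. The median gene of the length class of Syp had 2 summits, and 20 of 286 (6.99%) had as many as 15. In the class of crol the median was 1 and 140 of 737 (19.0%) had as many as 5. In the class of Imp the median was 2 and 97 of 406 (23.9%) had as many as 6. In the class of Eip93F the median was also 2, and 71 of 204 (34.8%) had as many as 4. By the rank of the strongest site the order differed: 10.3% of the class of Eip93F had a stronger best site, as did 5.24% for Syp, 11.1% for crol and 21.2% for Imp.

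**Figure D3:**
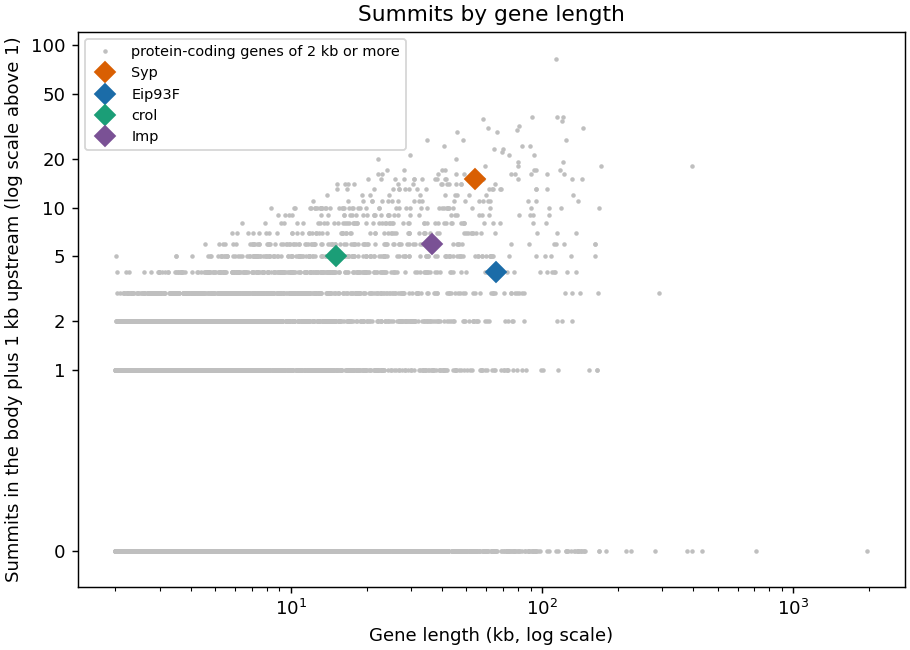
Number of IDR-thresholded summits in the body plus 1 kb upstream against gene length (kb, log scale) for protein-coding genes of 2 kb or more (grey) and the 4 temporal identity genes (diamonds). Syp, with 15 summits, lies in the upper part of the cloud at its length, with some genes above it, and Eip93F, with 4, lies well inside the cloud.

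The windows of 100 bp on either side of the summits were searched on both strands for 7 motifs. The palindromic ecdysone response element (EcRE IR1, 13 letters) was matched exactly at none of the 30 summits, and at 0.447% of all IDR-thresholded summits. With 1 mismatch allowed it was matched at 2 of the 30 (6.67%), against 3.74% of all summits and 0.688% and 0.759% of windows shifted by 1000 bp to either side. Both matches were at Syp, at the strongest site and at the other strong site of the gene, ranks 193 and 536. The first ran from 20765630 to 20765642, centred 21 bp from the summit, and departed from the consensus by C5G. The other ran from 20791410 to 20791422, centred 20 bp from the summit, and departed by G2A. Positions count from 1 at the 5′ end of the consensus on the plus strand, consensus base first.

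AGGTCA, a single arm of that palindrome, was matched at 2 of the 30 summits, 1 of Eip93F at 21954480 and 1 of Syp at 20769010, that is 6.67% against 6.24% of all summits. GAGAGAG, a run bound by the GAGA factor Trl, was matched at 8 (26.7%), against 9.22% of all summits: 4 at Syp, 3 at Imp, 1 at crol and none at Eip93F. CACACACA was matched at 6 (20%), against 10.04% of all: 3 at Imp, 2 at crol and 1 at Syp. GAGAGAG and CACACACA share no stretch of their letters beyond a base or a pair, and AGGTCA can lie within EcRE IR1 and DR1. Windows shifted to either side held GAGAGAG in 3.86% and 4.09%, and CACACACA in 4.71% and 4.84%. TATCGATA, the element of replication-related genes, CAGGTAG, and a tandem pair of AGGTCA with a single base between (DR1) were matched at none of the 30, and at 1.62%, 1.06% and 0.00893% of all summits. A match is a string in a window, and whether any factor was bound through it was not tested. The mean GC content of the windows was 47.9%, and 44.5% over all summits.

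Other genes of temporal patterning were read from lists of such genes. Of the 28 listed genes besides the 4, 13 were bound by the thresholded peaks, and 13 were bound in every replicate, 46.4% against 35.8% of protein-coding genes. The 35.8% does not allow for gene length. In the length classes of the listed genes the share bound ran from 26.8% (slp1) to 69.4% (hth), so 46.4% is not read as an excess. No length class was given for B-H1, B-H2 or lncRNA:let7C, and the last is not protein-coding. The counts differed between the groups. Genes that time late larval neural stem cells and their neurons were bound in 7 of 9 cases. In the length classes of these genes, lncRNA:let7C left out, 37.5% (lin-28) to 66.1% (mamo) of protein-coding genes were bound. The locus lncRNA:let7C, which gives rise to the let-7 microRNA, had 12 summits (11, 13 and 11 in the replicates), with best ranks in the replicates from 104 to 216. EcR had 32 summits and br, the broad gene whose isoforms mark neuron birth order, had 24. The zinc finger gene mamo had 15 summits with a best rank of 918. The nuclear receptor gene svp had 5 with a best rank of 2011, 125 bp upstream of a TSS. By contrast chinmo, whose BTB zinc finger protein is raised by Imp and lowered by Syp, had 2 summits with a best rank of 6750, 217 bp upstream of a TSS. The RNA-binding gene lin-28 also had 2, with a best rank of 3758, and cas and dati had none. The gene dati lies on chromosome 4, where 5 of 80 protein-coding genes (6.25%) were bound.

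A further list, of regulators and targets of Imp and Syp, held chinmo, br, mamo and lin-28 again together with mnb, whose place in it is uncertain. All 5 were bound, but the list was chosen with earlier results of these data known, so the count is no result about it. In the length classes of these genes 37.5% (lin-28) to 66.1% (mamo) of protein-coding genes were bound. The kinase gene mnb had 12 summits and best ranks from 58 to 77 in the replicates. The list of the metamorphic switch held chinmo, br and Eip93F, all counted already, and Kr-h1, and its 4 genes were bound, where 58.8% (Kr-h1) to 65.3% (br) of genes of like length were. Kr-h1, the juvenile hormone response gene, had 12 summits and best ranks from 23 to 28.

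The embryonic series was bound in 3 of 6 cases, where 44.2% (cas) to 61.2% (pdm2) of genes of like length were. In it grh had 14 summits with a best rank of 1685. The genes nub and pdm2 had 1 each at ranks 7474 and 7832, and hb, Kr and cas had none. In the intermediate progenitor series 1 of 3 was bound, grh, where 39.1% (D) to 60.4% (ey) of genes of like length were. Of the 12 genes of the optic lobe series only hth was bound, with 15 summits over 132008 bp and a best rank of 4321. The other 11, opa, erm, ey, hbn, scro, slp1, slp2, D, B-H1, B-H2 and tll, had no summit in the IDR-thresholded list or in the strongest peaks of any replicate. For those of the 11 genes given a length class, the share bound among genes of like length was between 26.8% (slp1) and 60.4% (ey). None was given for B-H1 and B-H2, and ey also lies on chromosome 4.

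**Figure D4:**
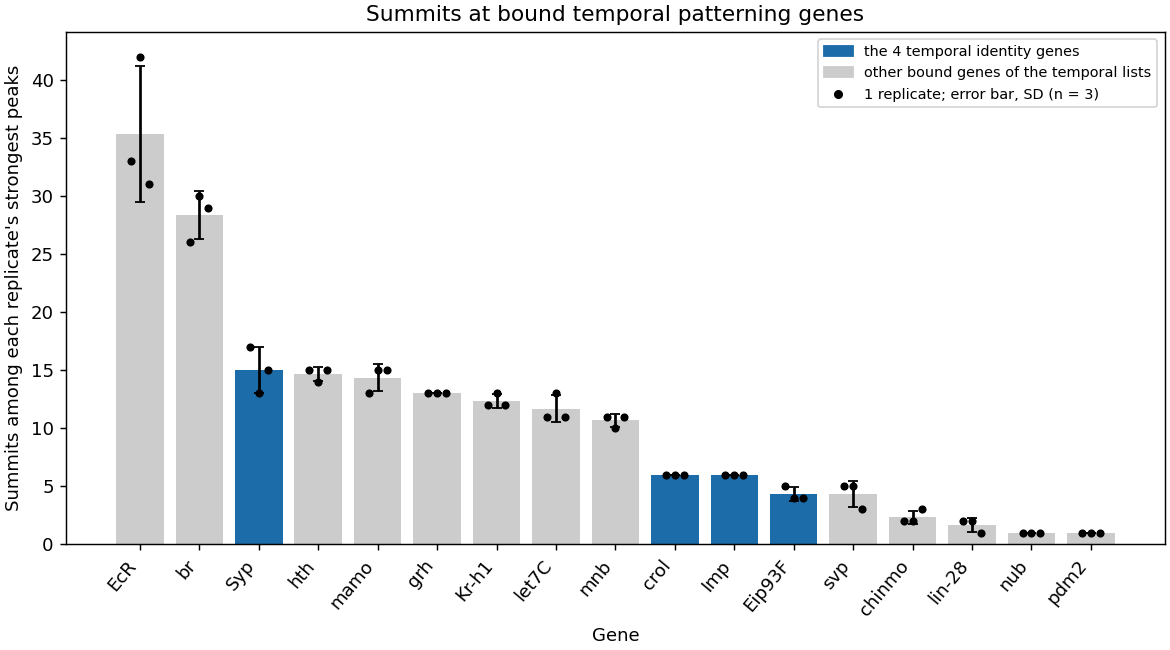
Number of summits among the strongest 11195 peaks of each replicate at the bound temporal patterning genes: bars are means, error bars are SD (n = 3) and points are replicates. Syp, with 13 to 17, is level with hth and mamo, and crol, Imp and Eip93F, with 4 to 6, are near svp.

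Likeness to the 4 genes was measured as the distance over 6 values, the log2 number of summits (plus 1) and the log10 best rank in each of the 3 replicates, among protein-coding genes with a summit in every replicate. The nearest to Syp were pum, with 18, 14 and 17 summits and best ranks of 284, 191 and 237 (distance 0.276), and shep, with 15, 14 and 15 summits and best ranks of 195, 255 and 223 (0.331). The nearest to Imp were Mekk1 (0.103) and CrebB (0.200). The nearest to Eip93F were Pect (0.284) and 14-3-3epsilon (0.286). The nearest to crol were CG13917 (0.105) and Nadk1a (0.134). Each of these is close only in the number and strength of its sites.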

How the data were processed

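Peaks were called by the authors on dm6, per the file headers, from the alignment of each replicate with a control alignment. Per the same records the pooled list came from replicates 2 and 3, and the IDR-thresholded list from those 2 replicates' lists and the pooled one. Aligner, caller and IDR cut: not given in the sources used here. Per peak, the deposited signal is a caller's score, unscaled between libraries. The deposited −log10 q-value was at 1 maximum throughout the IDR-thresholded list and was not used. Each replicate list and the pooled list held 30000 rows, and the IDR-thresholded list was the 11195 strongest pooled peaks. Replicates were therefore cut to 11195. Read depth is unknown from these files.

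Summits (interval start plus offset) were counted with Python 3.11.15 and pandas 2.3.3 in gene bodies plus 1000 bp upstream, using Ensembl release 115 (BDGP6.54) without transposable elements. Annotated start codons read ATG in the RefSeq release 6 sequence in 99.9% of 16213 cases. Coordinates are 1-based on dm6. No 2 replicates shared more than 557 of 30000 summits at the same base. With a single group no test between groups exists, and no p-value is given. Counting was checked on simulated data. Members and lists were chosen with earlier results of these data known. BarH1, BarH2 and let-7-C were found as B-H1, B-H2 and lncRNA:let7C. Named genes were the 4 genes, the listed temporal genes, genes overlapping their summits and the 2 nearest by likeness. Alternatives varied the list, upstream reach, match distance, promoter width, motif window and replicates.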

Additional observations from a re-analysis of the deposited data

How the results depend on the processing

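Of 156 alternative values, 125 kept within 1.5 times the reported count or within 1 SD of the reported rank. All 4 genes were bound under every alternative run. The share of all protein-coding genes bound is given only for the IDR-thresholded list and the strongest peaks of each replicate. Under the other alternatives the count has no share beside it and is no result about the 4 genes. Without the cut at 11195, summits rose in number: in the pooled list Syp had 30, Eip93F 13, Imp 13 and crol 8, and in replicates 1, 2 and 3 with all rows Syp had 31, 30 and 29, Eip93F 14, 12 and 11, Imp 11, 16 and 11, and crol 10, 9 and 8, so that crol and not Eip93F then had the fewest. With 1 summit per interval Syp had 9. Leaving out each replicate in turn, the mean number of summits lay between 14 and 16 for Syp, between 4 and 4.5 for Eip93F, and at 6 for Imp and crol. The mean best rank lay between 167.5 and 211 for Syp, 467 and 532 for Eip93F, 820 and 1016.5 for crol and 1309 and 1503 for Imp. Replicate 2 alone gave best ranks of 145 for Syp, 554 for Eip93F, 1201 for crol and 1185 for Imp, cut or uncut, each more than 1 SD from the IDR-thresholded rank. With 5 kb upstream the best rank of Eip93F became 409, from the site outside its 1 kb limit.

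Within 50 bp 21 of the 30 summits recurred in all replicates and within 200 bp 29, and with 1 replicate left out 27 to 28. With promoters of 1000 bp 11 summits were at one instead of 7. The shares over all summits for recurrence and for promoters are given only for the match distance, replicates and promoter width used in the Results. The counts under these alternatives have no such share beside them, so they are not read as more or less than over all summits. Motif counts rested on few summits: with 1 mismatch EcRE IR1 matched 2 instead of 0. Within 50 bp AGGTCA matched 1 and GAGAGAG 3, the latter instead of 8, and within 200 bp CACACACA matched 12. The motif shares over all summits are for 100 bp, so the counts within 50 and 200 bp are not read against them. Whether GAGAGAG exceeds its share over all summits within 50 bp was not tested. Depth is unknown, so whether a site that is not listed was absent or only undetected cannot be told apart. The cause of these shifts was not tested. No paired analysis was possible because there is only 1 group.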

Other observations

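Some closely spaced sites ranked differently in single replicates and in the pooled data. The Eip93F summit at 21976823, in the same interval as the strongest site of that gene, ranked 4581, 5386 and 3632 in replicates 1, 2 and 3 but 10249 in the pooled data, just inside the cut of 11195. The crol site at 11808190 ranked 4183, 2337 and 8660 in the replicates but 14924 in the pooled data, outside the cut. Replicate 1 also held a summit at 20778415 in Syp, 480 bp upstream of a TSS, at rank 2476, with no counterpart within 100 bp in any row of the pooled list.

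Below the cut, the pooled list held 34 further summits at the 4 genes, 15 at Syp, 9 at Eip93F, 7 at Imp and 3 at crol, and 14 of them had a counterpart within 100 bp in all rows of each replicate. All 3 of the weak crol summits did, as did 4 of 9 at Eip93F, 5 of 15 at Syp and 2 of 7 at Imp. No share over all pooled summits below the cut stands beside these counts, so they are no result about the 4 genes. Each TSS of Eip93F had 1 such weak summit within 500 bp.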
